A study of Caenorhabditis elegans with 2 samples.

Results

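The 10 genes described here are pan-neuronal and synaptic genes of the nematode Caenorhabditis elegans, out of 19973 protein-coding genes on the nuclear chromosomes. They encode the vesicle release machinery (snb-1, unc-64, ric-4, snt-1, unc-18, unc-13), the dense core vesicle proteins UNC-31 and SBT-1, and the widely used pan-neuronal markers RGEF-1 and UNC-119. The genes were chosen on peak values of these same lists, so their peaks are given as a description, with no test. Tagged CEH-82, a homeodomain protein, was pulled down with its DNA by chromatin immunoprecipitation from whole L1 larvae of mixed sex, and the DNA was sequenced (ChIP-seq). There was 1 group with 2 biological replicates. The strain, OP212, carries the mutation unc-119(ed3) on chromosome III and the transgene ddEx58, and it expresses ceh-82 (F45C12.2) with a GFP-FLAG tag at the C terminus. By worm naming convention Ex denotes an extrachromosomal array, although the labels also speak of an insertion. The labels do not say whether the transgene also carries a wild-type unc-119 gene, which is a common selection marker in worm transgenesis. All values come from 1 transgenic line and from whole animals, so no peak can be assigned to neurons or to another tissue.

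Synaptic vesicles fuse with the plasma membrane when synaptobrevin on the vesicle pairs with syntaxin and SNAP-25 on the target membrane. UNC-18 and UNC-13 prepare this complex, synaptotagmin senses the calcium that triggers fusion, and UNC-31 acts in the release of dense core vesicles, which hold neuropeptides. Pan-neuronal genes are expressed in nearly all neurons of the worm, and members of the CUT class of homeodomain proteins are known to take part in their regulation. The labels do not place CEH-82 in that class.

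Peaks were used from 4 lists on ce11 (WBcel235). The first was thresholded by the irreproducible discovery rate, which compares ranked peak lists (2052 peaks). The others were the relaxed lists of the pooled replicates (30000), of replicate 1 (16551) and of replicate 2 (30000). Of the thresholded peaks, 5.65% overlapped no replicate 1 peak, so a place in that list does not mean a peak in both replicates. The thresholded peaks were the 2052 strongest of the pooled list. Signal is the authors' score for a peak, and rank 1 is the highest signal of a list. Signal scales differ between lists, and no read depth is known for them. A peak belonged to a gene when its summit lay between 1000 bp before and 200 bp after the start of an annotated transcript, called the start window here, or inside the gene. The relaxed lists are labelled as peaks and background, so a weak entry need not be a binding site.

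Of the 10 genes, 5 held a thresholded peak: snb-1 (signal 155), unc-119 (90.7), sbt-1 (46.7), rgef-1 (31.03) and unc-18 (26.9). Among all protein-coding genes, 10.9% held one at a start or inside the gene. For 4 of the 5 the summit lay 158 to 373 bp upstream of the start, while the unc-119 summit lay inside an intron. At the start alone, 4 of the 10 genes held a thresholded peak, against 9.91% of all protein-coding genes. The other 5 genes, unc-64, ric-4, snt-1, unc-13 and unc-31, had only relaxed peaks, the best of which had a signal of 10.6. The share of all genes is given only as the level of these lists, since the 10 genes were chosen with their peaks known.

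**Figure D1:**
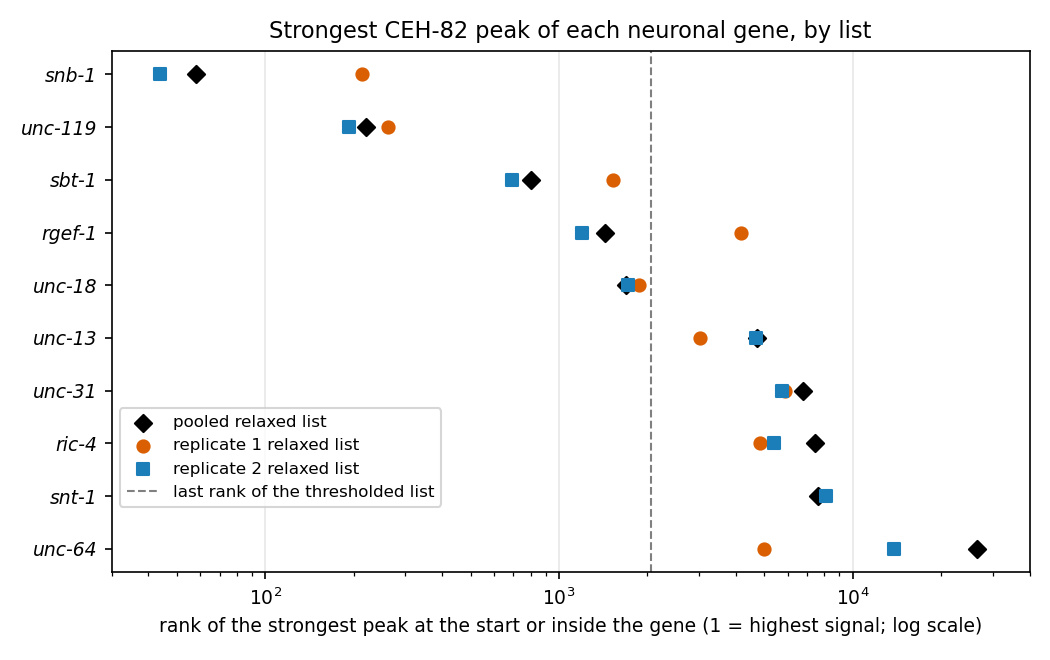
Rank of the strongest peak at the start or inside each of the 10 genes (rows) in the pooled relaxed list (diamonds), replicate 1 (circles) and replicate 2 (squares), on a log axis where 1 is the highest signal. The dashed line marks rank 2052, the last of the thresholded list, snt-1 has no circle because replicate 1 listed no peak for it, and the rgef-1 circle is a peak that does not overlap the pooled one.

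In the relaxed lists the genes were marked more widely, as were genes in general. A pooled relaxed peak lay at the start of 8 of the 10 genes, against 43.4% of all protein-coding genes, and at the start or inside all 10, against 60.9%. Replicate 1 had peaks at the start of 7 (29.7% of all genes) and at the start or inside 9 (44.9%). Replicate 2 had them at the start of 7 (43.6%) and at the start or inside all 10 (61.9%). The 10 genes are longer than most, with a median length of 5971.5 bp against 2027 bp over all protein-coding genes, and 80% of them had more than 1 annotated start position, against 27.4%. A longer gene offers more sequence in which a summit inside the gene can fall, and more starts can add start-window sequence. The start windows of a gene covered a median of 1221.5 bp for the 10 genes, against 1201 bp over all protein-coding genes. The part of either in the counts was not tested.

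The threshold fell between signals of 22.34 (rank 2052) and 22.33 (rank 2053) of the pooled list. The gene just inside it was unc-18, with a signal of 26.9 at rank 1684. The strongest peak just outside it was a second unc-119 peak, with a signal of 14.5 at rank 3110, and the best peak of a gene with no thresholded peak was that of unc-13, with 10.6 at rank 4718.

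The 100 bp at each of the 5 thresholded summits are given here. They are the central part of peaks 230 bp wide, and the rest of each peak was not searched for motifs. With them stands a thresholded peak upstream of unc-64 that lay outside the start window. Each is written on the strand of its gene from the WBcel235 sequence (RefSeq), so that transcription runs to the right, and the capitals mark the motifs GAGAGA (or its complement TCTCTC) and ATCGAT.

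snb-1, chrV:6656824-6656923, minus strand: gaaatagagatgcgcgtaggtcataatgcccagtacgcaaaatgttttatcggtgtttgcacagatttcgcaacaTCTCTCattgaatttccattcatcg
unc-64, chrIII:13275825-13275924, plus strand: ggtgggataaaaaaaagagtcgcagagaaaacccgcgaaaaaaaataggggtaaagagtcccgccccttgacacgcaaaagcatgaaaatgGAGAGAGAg
unc-18, chrX:7682507-7682606, plus strand: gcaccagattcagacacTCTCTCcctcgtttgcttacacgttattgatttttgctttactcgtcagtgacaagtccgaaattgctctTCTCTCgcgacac
sbt-1, chrV:20828989-20829088, minus strand: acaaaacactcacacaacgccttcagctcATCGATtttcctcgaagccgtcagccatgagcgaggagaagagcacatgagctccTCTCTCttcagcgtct
rgef-1, chrV:9561880-9561979, minus strand: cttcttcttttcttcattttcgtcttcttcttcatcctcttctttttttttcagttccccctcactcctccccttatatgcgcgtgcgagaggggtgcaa
unc-119, chrIII:10905263-10905362, plus strand: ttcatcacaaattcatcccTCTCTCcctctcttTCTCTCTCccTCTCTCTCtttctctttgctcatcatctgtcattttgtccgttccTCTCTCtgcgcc

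The motif GAGAGA, on either strand, was present in 4 of the 5 windows of the 10 genes, those of snb-1, unc-18, sbt-1 and unc-119, against 30.6% of the 2052 thresholded windows and 9.35% of the other pooled windows. The unc-119 window held 6 copies, counting overlapping ones, a number reached or passed by 35 of the 2052 thresholded windows. The rgef-1 window held none, but was rich in pyrimidines on the strand of the gene. C and T made up 77% of it and 85% of the unc-119 window. Over the thresholded windows, the richer of C plus T and A plus G had a median of 57% (upper quartile 62%), and 1.61% of windows reached the rgef-1 value. That cut-off was taken from these same windows, so the share only describes them. The unc-64 upstream window was rich in purines instead, with 27% C and T, and held 2 overlapping copies of GAGAGA.

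The core ATCGAT, a sequence that CUT homeodomain proteins are known to bind, was in 1 of the 5 windows, that of sbt-1, against 4.63% of thresholded and 3.36% of other pooled windows. Another 4 motifs were in none of the 5: TAATTA (a homeodomain palindrome, in 1.32% of thresholded windows), CACGTG (an E-box, 3.31%), TATAAA (a core promoter element, 3.27%) and CTGATAA (an intestinal GATA site, 0.292%). Of the other pooled windows, 4.11%, 2.05%, 9.26% and 1.83% held these motifs, in the same order. All were searched on both strands, and a match describes letters only. G and C made up 41 to 52% of the 5 windows, against a median of 49% (interquartile range 44 to 54) over thresholded windows and 37% (31 to 43) over the other 27948 pooled windows.

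Among the genes for the fusion complex, snb-1 had the strongest peak of the 10 genes. It encodes synaptobrevin, the vesicle member of the complex (WBGene00004897, chromosome V, 6655562 to 6656501, minus strand, 940 bp). Its peak, at 6656759 to 6656988, lay 373 bp upstream of the only annotated start and in the start window of no other protein-coding gene. Signal was 155 in the pooled list (rank 58), 21.7 in replicate 1 (rank 213) and 129 in replicate 2 (rank 44). The summits of the replicates were 1 bp apart. Replicate 2 placed it higher than replicate 1 did, with a signal 5.92 times as high, while the median of this ratio was 3.46 over the 1935 thresholded peaks with a match in each replicate (interquartile range 2.55 to 4.66). Replicate 2 listed a weaker second peak 702 bp upstream of the start, with a signal of 6.41 at rank 9322.

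The target-membrane partners, syntaxin (unc-64) and SNAP-25 (ric-4), had no thresholded peak by the same rule. For unc-64 (WBGene00006798, chromosome III, 13277258 to 13283887, plus strand) the pooled list held 1 peak, in an exon near the end of the gene, with a signal of 4.77 at rank 26545. However, a thresholded peak at 13275760 to 13275989 lay 1383 bp upstream of the nearest start, 383 bp beyond the window's edge. Its signal was 27.2 in the pooled list (rank 1661), 11.9 in replicate 1 (rank 740) and 15.9 in replicate 2 (rank 2254). The next nearest protein-coding start, that of cpf-2, was 6992 bp away. Replicate 1 ranked this peak higher than replicate 2 did, the reverse of the order for snb-1.

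For ric-4 (WBGene00004364, chromosome V, 10261131 to 10270314, minus strand) 5 pooled peaks had signals of 4.72 to 8.42. The strongest lay 652 bp upstream of the inner of 2 annotated starts, at rank 7426, and overlapped a peak of each replicate (rank 12579 in replicate 1 and 22842 in replicate 2). The best peak of ric-4 in replicate 2 was another one, 910 bp upstream of the outer start, with a signal of 8.16 at rank 5396. None of the ric-4 peaks came within the strongest 2052 of a list.

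The regulators of fusion differed among themselves. The unc-18 gene, for a syntaxin-binding protein (WBGene00006757, chromosome X, 7682896 to 7686037, plus strand), held a thresholded peak at 7682442 to 7682671, 339 bp upstream of the start. Signal was 26.9 in the pooled list (rank 1684), 6.16 in replicate 1 (rank 1866) and 20.6 in replicate 2 (rank 1720). It was the weakest of the 5 genes with a thresholded peak, and both replicates placed it among their strongest 2052. Inside the gene were 2 weak pooled peaks with signals of 6.90 and 6.95.

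By contrast, snt-1, for synaptotagmin (WBGene00004921, chromosome II, 6810963 to 6816433, plus strand), had no peak of any kind in replicate 1 and none in the start window in any list. Its 3 pooled peaks, with signals of 4.57 to 8.34, lay inside the gene, and the strongest was in an intron 350 bp downstream of the nearest start (rank 7599). In replicate 2 the matching region had a signal of 6.80 at rank 8091.

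The unc-13 gene, for the protein that primes vesicles (WBGene00006752, chromosome I, 7422785 to 7454116, plus strand), was the longest of the 10 at 31332 bp and had the most pooled peaks, 15. Their signals ran from 4.52 to 10.6. The strongest was in an intron toward the 3′ end, 10452 bp past the nearest start, with rank 4718 in the pooled list and 4672 in replicate 2, and overlapped no peak of replicate 1. The best peak of replicate 1 was elsewhere in the gene, with a signal of 4.66 at rank 3016. Per kb of gene, unc-13 held 0.479 pooled peaks.

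In the dense core vesicle pair, sbt-1 had a thresholded peak and unc-31 did not. SBT-1 is related to mammalian 7B2, a chaperone of the proprotein convertase that cuts neuropeptide precursors. The sbt-1 gene (WBGene00011392, chromosome V, 20827715 to 20828881, minus strand) is short, at 1167 bp, and its peak, at 20828924 to 20829153, lay 158 bp upstream of its only start. Signal was 46.7 in the pooled list (rank 805), 7.12 in replicate 1 (rank 1525) and 40.04 in replicate 2 (rank 694). The summit also fell in the start window of num-1, the Numb gene, which is transcribed away from sbt-1 with its nearest start 772 bp from the summit. It was the only 1 of the 5 peaks to lie in the start window of a second protein-coding gene.

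For unc-31, the worm CAPS gene (WBGene00006767, chromosome IV, 12773867 to 12788354, plus strand), 4 pooled peaks had signals of 6.02 to 8.83. The strongest lay 135 bp upstream of a start, at rank 6742, and its counterpart in replicate 2 had rank 5739. Replicate 1 had 4 peaks in the gene but none in a start window, and its best, with a signal of 3.42 at rank 5879, lay in an exon.

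Both marker genes held thresholded peaks, of unlike kinds. For rgef-1, which encodes a Ras guanine nucleotide exchange factor (WBGene00009100, chromosome V, 9556027 to 9561674, minus strand), the peak at 9561815 to 9562044 lay 256 bp upstream of the nearest start. Signal was 31.03 in the pooled list (rank 1431) and 27.6 in replicate 2 (rank 1196). Replicate 1 had no peak that overlapped it. The only replicate 1 peak of the gene had its summit 360 bp from the pooled summit, farther upstream, with a signal of 3.998 at rank 4160 and a gap of 125 bp between the peaks. Of the 2052 thresholded peaks, 5.65% had no overlapping peak in replicate 1. The rgef-1 peak therefore rests on replicate 2, and without it 4 of the 10 genes held a thresholded peak and 3 held one at the start. With only thresholded peaks found in both replicates, 9.42% of all protein-coding genes held one at a start. The matching share at a start or inside the gene was not taken.

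**Figure D2:**
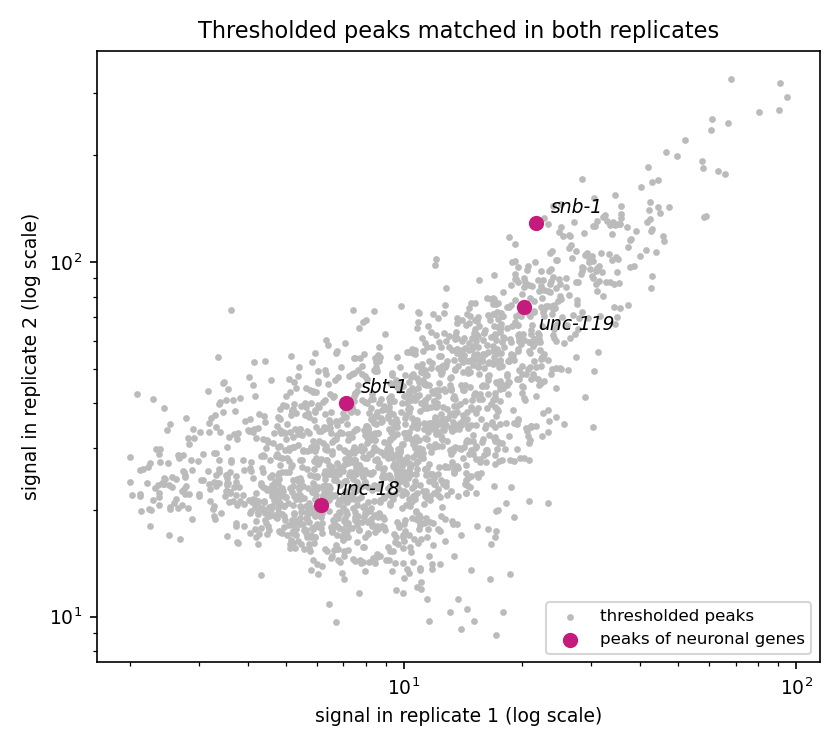
Signal in replicate 2 against signal in replicate 1, both on log axes, for the 1935 thresholded peaks matched in both replicates (grey) and for those of snb-1, unc-119, sbt-1 and unc-18 (coloured). The peaks of snb-1 and sbt-1 lie toward the replicate 2 side of the cloud and those of unc-119 and unc-18 near its middle, while rgef-1 is absent because it had no match in replicate 1.

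The unc-119 gene, for a lipid-binding chaperone of membrane proteins needed in the nervous system (WBGene00006843, chromosome III, 10902641 to 10908935, plus strand), was the only 1 of the 10 with a thresholded peak inside the gene. Of all protein-coding genes, 1.00% had a thresholded peak inside and none at a start. The peak, at 10905198 to 10905427, had its summit in intron 1 of the 4 introns of transcript M142.1c.1. That intron, 10902709 to 10906455, is 3747 bp long. The summit was 2672 bp downstream of the outermost start and 1143 bp upstream of the start of a shorter transcript, 143 bp beyond the edge of its start window. Signal was 90.7 in the pooled list (rank 220), 20.3 in replicate 1 (rank 261) and 74.6 in replicate 2 (rank 193). The replicate summits were 6 bp apart, and the ratio of replicate 2 to replicate 1 was 3.68, beside the median of 3.46.

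The intron peak was not the only entry at unc-119. The gene held 6 pooled peaks, or 0.953 per kb, the highest of the 10 genes, against 0.276 over the summed length of all protein-coding genes. The second of these, 712 bp downstream of the outermost start in the same intron, had a signal of 14.5 (rank 3110). It was at the highest q of the list, as were 1162 of the 27948 pooled peaks outside the thresholded list. It ranked 1854 in replicate 1 and 4556 in replicate 2. Of the thresholded peaks, 224 had their summit in an intron and in no start window, with a median signal of 35.3, and the unc-119 peak was number 11 of them by signal.

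Because the strain is an unc-119 mutant that carries a transgene, a peak from the chromosomal gene and a peak from any copy on the transgene cannot be told apart in these lists. The tagged gene itself, ceh-82 (WBGene00018433, chromosome II, 1732232 to 1733291), of which the strain carries a tagged copy, held 0 peaks in all 4 lists. The nearest pooled summit was 2852 bp away, with a signal of 5.30 at rank 21729.

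**Figure D3:**
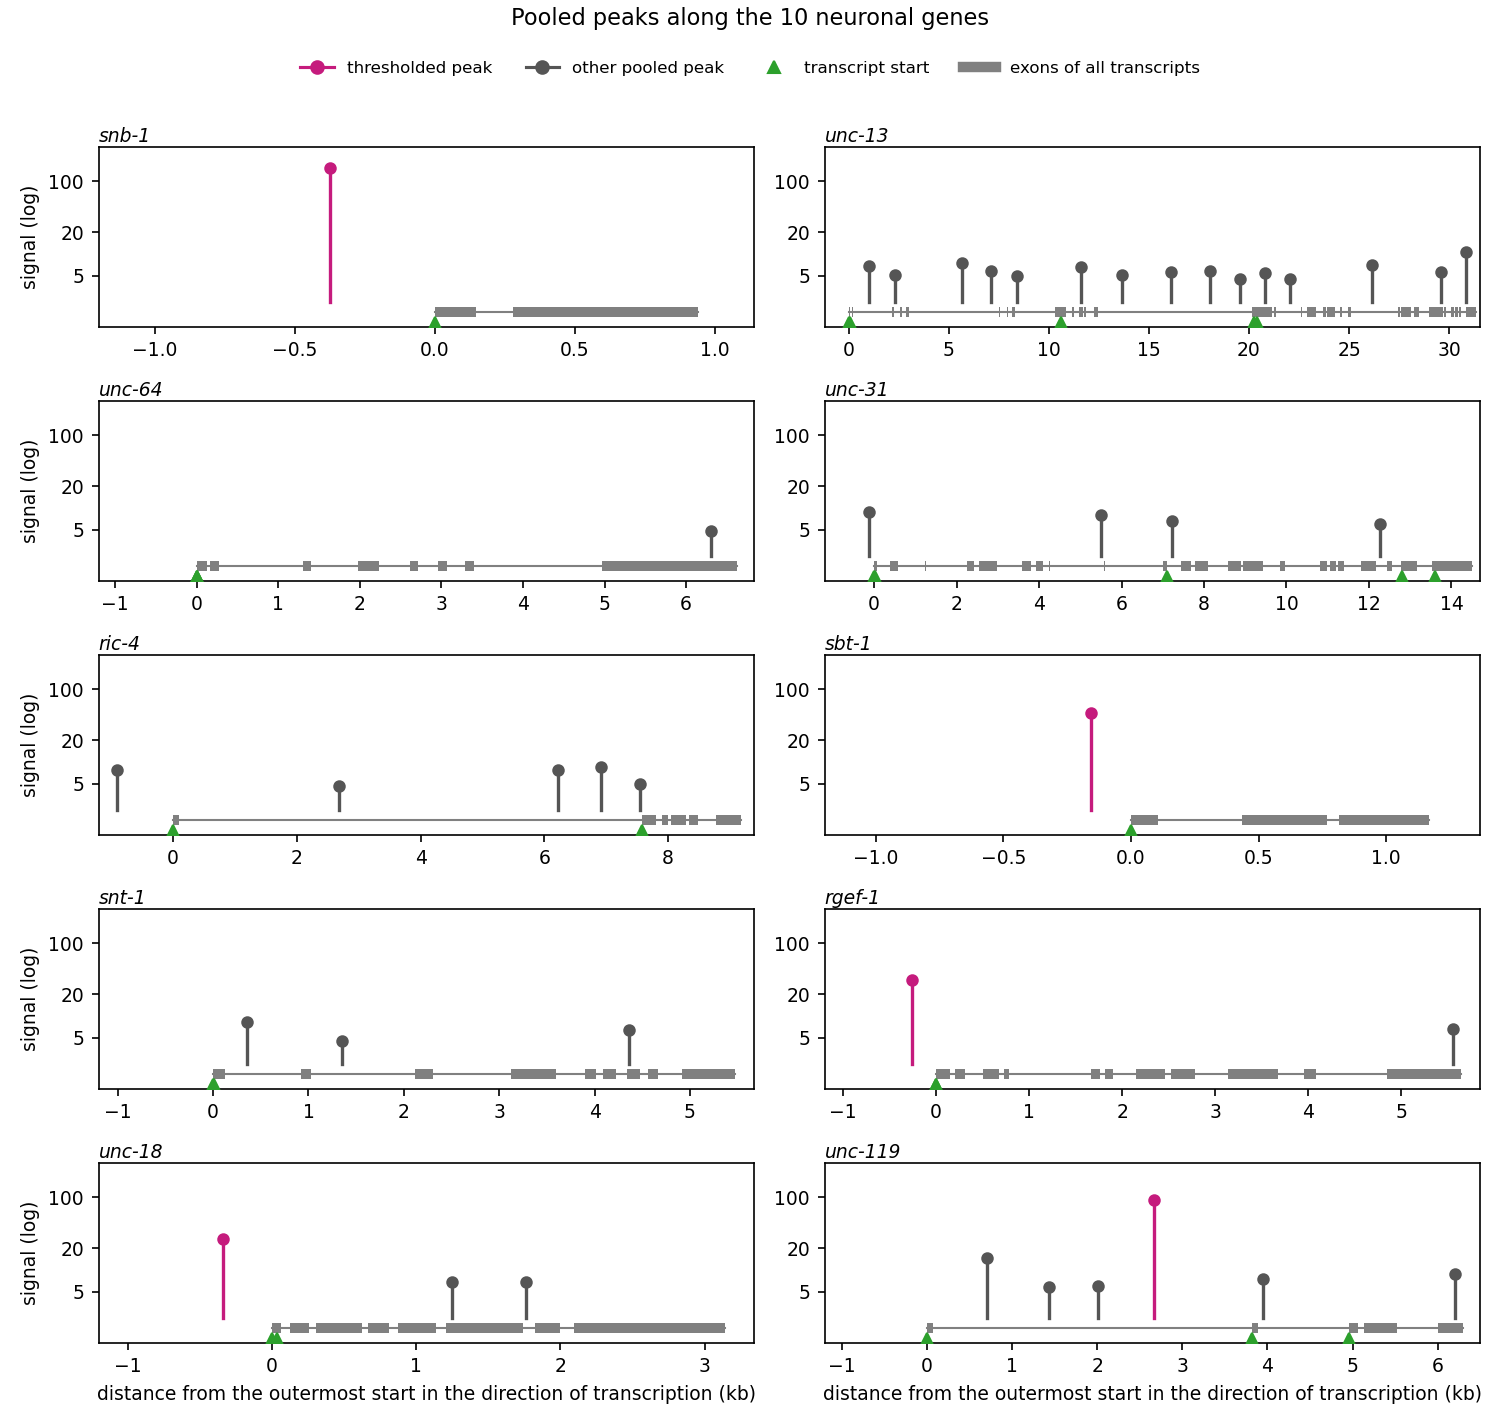
Pooled peaks along the 10 genes, with distance from the outermost start in kb, in the direction of transcription, on the horizontal axis and signal on a log vertical axis. Coloured stems are thresholded peaks, dark grey stems other pooled peaks, triangles annotated starts and grey boxes exons. Single tall stems stand upstream of snb-1, sbt-1, rgef-1 and unc-18, the tall unc-119 stem stands between its starts, and unc-13 has 15 low stems along its length. The thresholded peak upstream of unc-64 lies outside its start window and is not drawn.

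Aside from the 5 thresholded peaks, the 10 genes held 36 pooled peaks, with signals of 4.52 to 14.5. Of these 8 lay in a start window, 8 in an exon and 20 in an intron. The same split was not made for all pooled peaks, so these counts are not read as a trait of the 10 genes. The 36 peaks were found again in replicate 1 for 9 (25%) and in replicate 2 for 27 (75%). Of all pooled peaks outside the thresholded list, 25.1% and 71.2% were. Of the 36, 7 (19.4%) overlapped a peak of both replicates, against 14.4% of all pooled peaks outside the thresholded list. Inside the 10 genes together there were 0.415 pooled peaks per kb, against 0.276 over all protein-coding genes, and snb-1 and sbt-1 had none inside the gene.

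For scale, the peaks ranked next to those of the 10 genes are named here by the gene with the nearest start. On either side of snb-1 in the thresholded list were those of wapl-1, a cohesin regulator (155.6, rank 57), and dld-1, a mitochondrial dehydrogenase (154, rank 59). Beside the unc-119 peak were those of dnj-12, a DnaJ family gene (90.8), and F44E7.9 (89.9). Beside sbt-1 were B0041.8 (46.71) and acy-1, an adenylyl cyclase gene (46.67), beside rgef-1 were nmat-1 (31.07) and btbd-10 (30.99), and beside unc-18 were mrt-2, a DNA damage checkpoint gene (26.91), and gpdh-3 (26.87).

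A wider list of 121 genes in 10 neuronal roles, none of them among the 10 genes above, gave a broader view. They were picked by role, and whether each is limited to neurons was not examined. A share above that of all genes is therefore not read as a neuronal trait. Annotation names matched 120 of the 121. Of these, 26 (21.7%) had a thresholded peak at a start and 87 (72.5%) a pooled relaxed peak there, beside the 9.91% and 43.4% of all protein-coding genes given above. With peaks inside the gene included, 33 of the 120 (27.5%) had a thresholded peak, against 10.9% of all protein-coding genes. The wider genes also had a median length of 6949.5 bp, so the same caution on gene size holds for peaks inside the gene. Of them, 63.3% had more than 1 start position. Their start windows covered a median of 1261 bp, against 1201 bp over all protein-coding genes. Beside 4.29% of all protein-coding genes, 20 of the 120 (20 of the 26) had a thresholded peak at the start of no other gene. The other 6 shared theirs, nsf-1 with adr-1, snap-1 with spr-1, itsn-1 with uaf-2, unc-69 with ostf-4 and unc-50, unc-40 with npp-7, and egl-30 with C53H9.4.

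By role, each count of genes with a thresholded peak at a start is to be read beside the 9.91% of all protein-coding genes. In axonal transport such peaks were at 5 of 10: unc-16, the JIP3 gene (signal 91.4), unc-76, a FEZ family gene (76.4), unc-14 (51.1), unc-116, the kinesin heavy chain (39.96), and unc-69 (24.6). In vesicle endocytosis they were at 4 of 9: apa-2, for the alpha subunit of the AP2 adaptor (31.5), ehs-1, the EPS15 gene (27.7), itsn-1, intersectin (26.2), and unc-11, the AP180 gene (24.6). In the axon and cytoskeleton group they were at 5 of 14: unc-33, the CRMP gene (41.5), unc-40, a netrin receptor (38.4), maco-1, macoilin (35.3), mec-12, an alpha tubulin (34.7), and sax-7, an L1 family adhesion molecule (24.4).

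The strongest single peak of the wider list was that of egl-30, which encodes the alpha subunit of the Gq protein that promotes synaptic release (signal 191, rank 21 in the pooled list, 30 in replicate 1 and 23 in replicate 2). Its summit, shared with C53H9.4, lay 64 bp upstream of a start. Further members in the same role followed, eat-16, an RGS protein gene (43.5), and gpb-2, a G protein beta subunit gene (28.6), for 3 of 9. Exocytosis had 3 of 9: nsf-1, the ATPase that takes apart the fusion complex (49.7), rbf-1, rabphilin (32.7), and snap-1, the alpha-SNAP adaptor of NSF (22.3), whose peak at rank 2050 stood at the edge of the list and overlapped none of replicate 1. Dense core vesicles and peptide processing had 3 of 9: unc-108, the Rab2 gene (79.9), egl-21, a carboxypeptidase that trims neuropeptides (33.02), and pkc-1, a protein kinase C (28.4).

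The shares for the active zone (11.1%) and for ion channels (11.8%) were near the 9.91% of all protein-coding genes. Of 9 genes for the active zone and synapse assembly, syd-2, the liprin gene, had one (58.7). Of 17 ion channel genes, unc-80, an auxiliary protein of a sodium leak channel (31.3), and unc-36, a calcium channel subunit (26.5), had one each. Among genes for transmitter synthesis, loading and clearance, 0 of 18 had a thresholded peak at a start, and the strongest pooled peak there was that of eat-4, the vesicular glutamate transporter (10.4). Among transmitter receptor genes it was 0 of 16, and the strongest pooled peak was that of gbb-1, a GABA-B receptor gene (13.4). With the same 9.91% as background, groups of this size would hold few such genes, so little can be read from either 0. A relaxed pooled peak lay at a start of 5 of the 18 genes (27.8%) and of 11 of the 16 receptor genes (68.8%), against 43.4% of all protein-coding genes. A thresholded peak inside the gene, and none at a start, was present at 7 genes of the wider list (5.83%), against 1.00% of all protein-coding genes, whose median length is shorter. They were syd-1, unc-41, klc-2, ida-1, unc-9, cat-1 (the vesicular monoamine transporter) and glr-2 (a glutamate receptor gene). Differences between roles were not tested, since each has few genes and the lists were made with earlier results known.

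**Figure D4:**
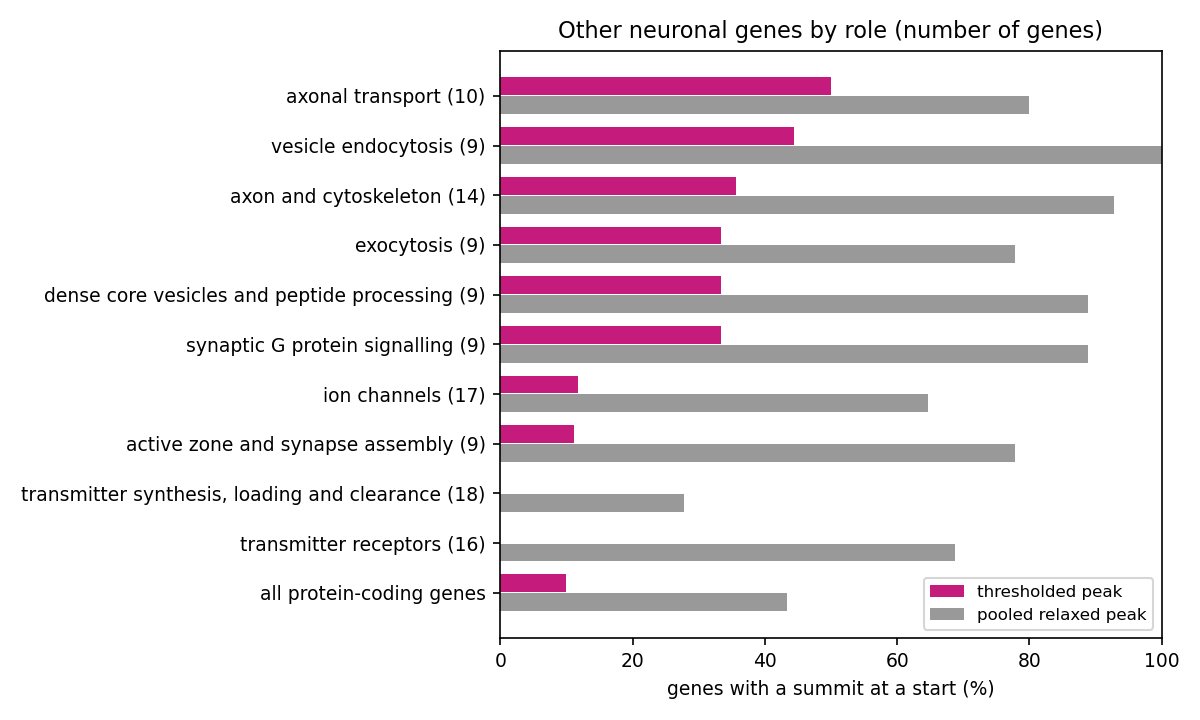
Percent of genes with a summit at a start, for the 10 roles of the wider neuronal list (number of genes in brackets) and for all protein-coding genes in the bottom row, with thresholded peaks in colour and pooled relaxed peaks in grey. Axonal transport stands at 50% for thresholded peaks, both transmitter roles at 0, and all protein-coding genes at 9.91%.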

How the data were processed

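Peaks were called by the authors on alignments to ce11, for each replicate and for both pooled, and thresholded by the irreproducible discovery rate, per the file headers, which also name a further input file whose kind is not given. The sources used here name no aligner, peak caller, version or threshold. The deposited signal is the authors' score for a peak. The deposited -log10 q value was at its ceiling of 3.81 for all thresholded peaks and was used only to mark that ceiling. Lists on ce10 were not used here. No control library was analysed here.

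Summits were placed on Ensembl release 115 (WBcel235), whose chromosomes extend past every peak. Windows of 100 bp at summits were read from the RefSeq sequence. Replicate peaks were matched by an overlap of at least 1 bp, taking the strongest. The 10 genes, the wider list, the motifs and the alternatives were chosen with earlier results of these data known, and 1 further alternative after the peaks were seen. No test was run. The gene nca-1 of the wider list was not matched by name. Named genes were the 10, the genes sharing or ranked next to their thresholded peaks, ceh-82, and in each role the genes with a thresholded peak at a start, or else the strongest relaxed one. The genes with thresholded peaks inside only, and the peak upstream of unc-64, were named after their values were seen. The pyrimidine share was not among the listed motifs, and its cut-off came from the rgef-1 and unc-119 windows. Placement was checked on planted summits, with 200 of 200 placed at the right gene and distance. Scripts ran in Python 3.11.15 with NumPy 2.4.6 and, for figures, matplotlib 3.10.9.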

Additional observations from a re-analysis of the deposited data

How the results depend on the processing

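No paired analysis was possible because there is 1 group. With only peaks above the median signal of their list, 3 of the 10 genes had a thresholded peak (snb-1, sbt-1, unc-119) against 5, and 2 had one at a start against 4. In the wider list 10 genes remained against 26, and all protein-coding genes with one at a start came to 5.68%. With 2000 bp upstream, 6 of the 10 had one at a start, unc-64 and unc-119 being added. In that setting 39 of the wider list had one, against 26, and all genes came to 12.6%. With 500 bp it was 4 of the 10, 19 of the wider list and 8.24%. With peaks at the start of a single gene it was 3 of the 10 and 4.29%, sbt-1 being dropped. Leaving out each replicate, by the strongest 2052 peaks of the other, gave 4 to 5 of the 10 genes, 3 to 4 at a start, 24 to 29 of the wider list and 9.14 to 9.86% of all genes. With only thresholded peaks found in both replicates, chosen after seeing the data, it was 4 of the 10, 3 at a start, 25 of the wider list and 9.42%. For counts of the 10 genes and of the wider list, all other alternatives stayed within 1.5 times. In them 7 to 9 of the 10 and 68 to 110 of the wider list had a relaxed peak at a start. The share of all protein-coding genes with a relaxed peak, 43.4% in the main setting, was not taken under these alternatives. These 2 ranges therefore have no matching background. The percentages of all genes in this paragraph for thresholded peaks are for a peak at a start. The share with one at a start or inside the gene, 10.9% in the main setting, was not taken under these alternatives either. Counts of the 10 genes with peaks inside the gene included therefore also lack a matching background. The sources used here give no read depth, so the number of reads behind a signal is unknown, and with 2 libraries of 1 line no spread between strains can be given.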
